A study of Mus musculus with 9 samples.

Results

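Heat shock proteins are molecular chaperones: they bind unfolded or partly folded proteins, help them to reach or regain their shape, and hand those that fail to the degradation machinery. The 10 genes described here are *Hspa1a*, *Hspa1b*, *Hspa8*, *Hsp90aa1*, *Hsp90ab1*, *Hsph1*, *Dnajb1*, *Hspb1*, *Hspd1* and *Trap1*, found by their gene symbols among the 27179 genes of a count table. All 10 were present and all 10 had enough reads to be among the 16329 genes tested. The table holds poly(A) RNA-seq counts from whole mandibles, teeth included, of mice at 6 months of age, 5 WT mice and 4 mice labelled FcgRIIB-/-. The paper describes the FcgRIIB-/- mice as males on a C57BL/6 background and the others as WT controls, without naming their strain. FcgRIIB is the inhibitory receptor for the constant part of immunoglobulin G. The study uses these mice as a model of lupus.

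The chaperones work as linked machines. Members of the HSP70 family bind short greasy stretches of a client protein in a cycle driven by ATP, J-domain proteins bring the client and start the cycle, and HSP110 proteins exchange the nucleotide and so end it. HSP90 takes over clients that are nearly folded, among them kinases and steroid receptors, small heat shock proteins hold unfolded proteins without using ATP, and the mitochondria have their own chaperonin and their own HSP90. After heat or other stress that unfolds proteins, heat shock factor 1 binds heat shock elements, inverted repeats of the bases GAA, before the inducible members, whereas *Hspa8* and *Hsp90ab1* are transcribed at high levels in unstressed cells.

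Of the 10 members 5 were higher in the libraries labelled FcgRIIB-/-, 1 was lower and 4 did not pass the test. The cytosolic HSP70 *Hspa8* rose 1.53-fold, the HSP110 gene *Hsph1* by 0.76 on the log2 scale, the inducible HSP70 gene *Hspa1a* 1.52-fold, the constitutive HSP90 gene *Hsp90ab1* 1.27-fold and the mitochondrial HSP90 gene *Trap1* 1.15-fold. *Dnajb1*, a J-domain partner of HSP70, went the other way, at 0.778 of its WT level. The test was the quasi-likelihood test of edgeR, and genes with an adjusted p under 0.05 (Benjamini-Hochberg, over all tested genes) were called. By the same rule 14.0% of all tested genes were higher and 19.3% lower, 33.3% in all. DESeq2 called 7 members higher and 1 lower, against 17.3% and 19.6% of all tested genes. *Hspa8* was called in all 9 fits that left out 1 mouse each, *Trap1* in 5, *Dnajb1* in 4, and *Hspa1a*, *Hsp90ab1* and *Hsph1* in 2 each. Between 1 and 8 members were higher depending on the mouse left out, while 1781 to 2292 of all tested genes were higher in the same fits.

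The 9 libraries held 21453880 to 28991631 counts, and each member had between 209 and 34555 counts per mouse. The targeted gene *Fcgr2b* did not separate the labels: its counts were 442 to 954 in WT and 562 to 757 under the other label (two-sided exact permutation test over 126 splits of log2 CPM, p = 0.286). For this reason the second group is named by its label throughout. Which part of the gene the mutant allele lacks is not given in the sources used here, so its gene-level count is no full check of the labels. All 14 osteoblast and osteocyte markers were detected, with a summed level of 43580 to 67400 CPM (reads scaled to the TMM-normalized size of each library) over the 9 mice. This shows RNA of bone cells but does not tell mandible from other bone. Markers of several cell types moved with the label. Summed CPM ran from 11630 to 27060 in WT and from 27750 to 48630 in the other group for 20 skeletal muscle markers (11 higher, 0 lower), from 12170 to 31390 and from 34470 to 57620 for 8 tooth markers (5 higher, 0 lower), from 1225 to 3741 and from 149.2 to 446.6 for 14 neutrophil and myeloid markers (0 higher, 14 lower), and from 1249 to 1470 and from 76.66 to 318.2 for 11 erythroid markers (0 higher, 11 lower). Lower genes also made up 7 of 8 osteoclast, 11 of 12 mitotic, 9 of 10 B lineage and 11 of 13 keratinized epithelium markers. Of the keratinized epithelium markers 1 was higher. Osteoblast and osteocyte markers had 6 of 14 lower (42.9%), against 19.3% of all tested genes, and 0 higher. DESeq2 called 4 of them lower and 1 higher. Summed CPM of these markers overlapped, with 46940 to 67400 in WT and 43580 to 53920 in the other group. Of 8 endothelial markers 1 was lower (12.5%, under the 19.3% of all tested genes) and 0 were higher. Their summed CPM overlapped, with 652.8 to 723.1 in WT and 617.3 to 717.2 in the other group. Of 4 adipocyte markers tested 1 was higher and 1 lower. No marker of these lists was at 0 in all libraries. The part of these shifts in the results on chaperones was not tested, and in such bulk samples fewer cells of a type and less RNA per cell cannot be told apart.

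**Figure D1:**
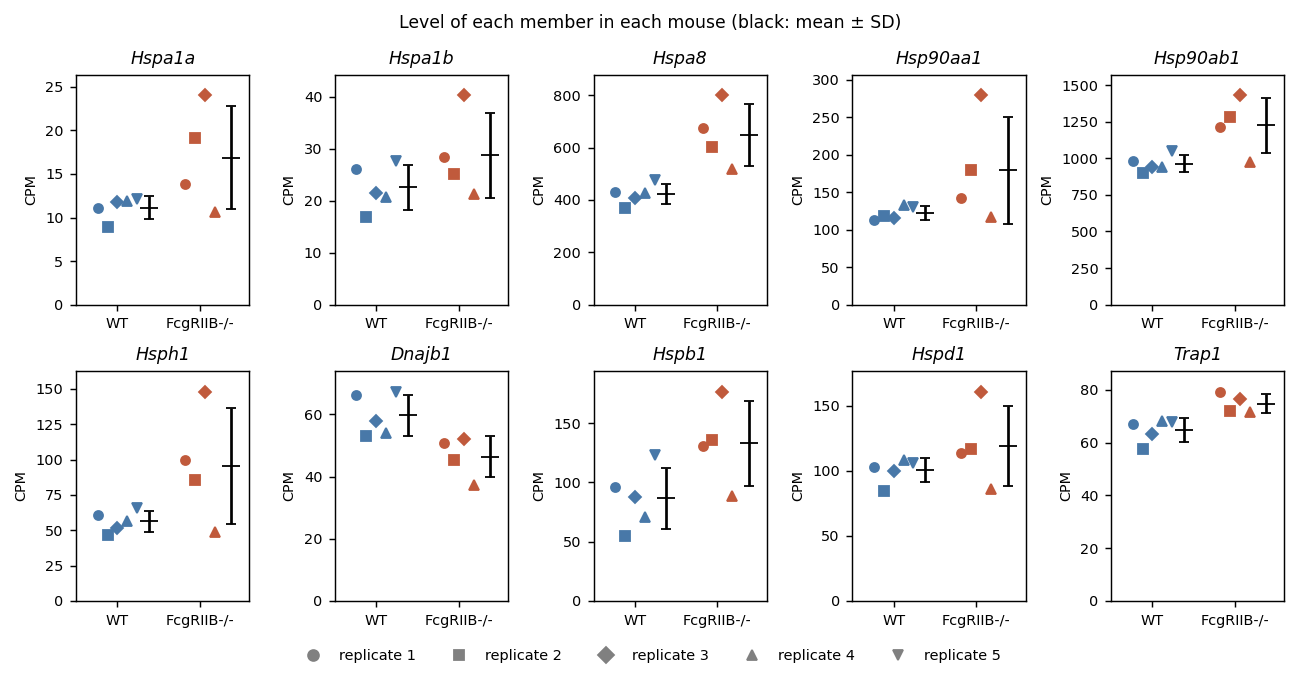
Level of each member in CPM (vertical axes start at 0 and differ between panels) in the 5 WT mice and the 4 mice labelled FcgRIIB-/-; symbols mark replicate numbers, black bars the mean ± SD. The groups separate for *Hspa8*, *Trap1* and *Dnajb1*, and replicate 3 labelled FcgRIIB-/- is the highest of its group in 9 of the 10 panels.

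The HSP70 members differ in how they are switched on. *Hspa1a* (gene 193740, chromosome 17 from 34969359 to 34972156, minus strand, GRCm38 or mm10) and *Hspa1b* (gene 15511, chromosome 17 from 34956429 to 34959238, minus strand) are neighbouring copies with 1 exon each that encode the stress-inducible HSP70. Their promoters are shown because they are nearly identical: over windows of 300 bases, 250 before and 50 after the start, 296 bases were identical. The stretches below are the bases before the start from RefSeq (GRCm38.p6), 5′ to 3′ on the gene's strand, with a 2-unit heat shock element (GAANNTTC or TTCNNGAA; either strand, since each is its own reverse complement) in capitals; the element begins 104 bases before both starts, and no annotated exon overlaps either stretch.
*Hspa1a*, chr17:34972157-34972406, minus strand: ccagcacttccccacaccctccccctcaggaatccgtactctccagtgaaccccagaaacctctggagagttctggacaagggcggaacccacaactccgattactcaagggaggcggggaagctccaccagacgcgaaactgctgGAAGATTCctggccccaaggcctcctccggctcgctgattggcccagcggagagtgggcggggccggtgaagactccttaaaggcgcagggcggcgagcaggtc
*Hspa1b*, chr17:34959239-34959488, minus strand: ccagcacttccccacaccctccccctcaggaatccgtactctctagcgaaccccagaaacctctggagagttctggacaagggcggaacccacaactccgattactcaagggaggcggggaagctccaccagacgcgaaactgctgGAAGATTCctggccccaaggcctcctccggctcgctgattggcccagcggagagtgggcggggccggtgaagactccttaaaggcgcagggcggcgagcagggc

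*Hspa1a* had 11.1, 8.91, 11.8, 11.9 and 12.1 CPM in WT replicates 1 to 5 and 13.8, 19.1, 24.0 and 10.6 CPM in replicates 1 to 4 labelled FcgRIIB-/-. Of the latter 3 lay above every WT mouse, and replicate 4 lay within the WT range. The difference was 0.60 on the log2 scale (SE 0.21, adjusted p = 0.0456 from edgeR), and 0.38 with an adjusted p of 0.139 without replicate 3 labelled FcgRIIB-/-. For *Hspa1b* the values were 26.1, 16.8, 21.5, 20.7 and 27.7 CPM in WT and 28.4, 25.1, 40.2 and 21.3 CPM in the libraries labelled FcgRIIB-/-. Here the groups overlapped, with replicate 3 far above the rest, and the difference of 0.35 did not pass the test (SE 0.19, adjusted p = 0.177 from edgeR; 0.15 without that library). Reads of these copies are hard to tell apart: 61.7% of the 75-base words of the *Hspa1a* transcript, the read length, also occur in transcripts of other genes, most of them in *Hspa1b*, and how the counting treated such reads is not stated. Summed, which is free of that split, the copies had 25.7 to 39.8 CPM in WT and 31.9 to 64.2 CPM in the other group, a log2 difference of 0.44 that did not pass (SE 0.18, adjusted p = 0.0889). The call for *Hspa1a* was thus not made for the sum. The *Hspa1a* gene also overlaps *Gm20481* on the opposite strand.

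*Hspa8* (gene 15481, chromosome 9 from 40801276 to 40805202, plus strand, 9 exons) encodes the constitutive cytosolic HSP70, which also strips clathrin from vesicles. Its level was 430.0, 370.3, 405.9, 427.8 and 477.9 CPM in WT and 675.1, 601.6, 799.2 and 517.4 CPM in the libraries labelled FcgRIIB-/-. Every mouse of the second group lay above every WT mouse. Such separation upward was found for 12.1% of all tested genes and for 2 of the 10 members, *Hspa8* and *Trap1*; separation downward was found for 17.5% and for 1 member, *Dnajb1*. The log2 difference was 0.62 (SE 0.13, adjusted p = 0.00474 from edgeR), and it stayed between 0.50 and 0.71 with adjusted p between 0.00339 and 0.0145 when each mouse was left out. Of its 75-base words, 68.6% also occur in other annotated transcripts, among them the processed pseudogene Gm15459, which were not analysed here, and the snoRNA genes Snord14c, Snord14d and Snord14e lie within it on the same strand.

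The inducible copies were also set against the constitutive form within each library. The summed count of *Hspa1a* and *Hspa1b* was 0.0794 ± 0.00674 (SD, n = 5) of the *Hspa8* count in WT mice and 0.0695 ± 0.00905 (SD, n = 4) under the other label. This ratio, taken within each library and so free of scaling, differed by -0.20 on the log2 scale. The labels overlapped, with 0.0693 to 0.0864 in WT and 0.0616 to 0.0804 in the other group. The difference did not pass (two-sided exact permutation test over 126 splits, p = 0.111, adjusted p = 0.167 over the 3 ratios tested).

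*Hsph1* (gene 15505, chromosome 5 from 149616843 to 149636498, minus strand, 18 exons) encodes HSP110, the nucleotide exchange factor that ends the HSP70 cycle. Of the 7 members with a promoter window, *Hsph1* is 1 of 2 whose windows held the full 3-unit element. *Hspa8*, *Hsp90aa1* and *Hsp90ab1* had no window and were not searched. The 3-unit element is a 2-unit element followed, after any 2 bases, by a further GAA or TTC in alternation (either strand). It holds 2 overlapping 2-unit elements and occurs in 0.603% of 32851 promoter windows of all genes. The match begins 15 or 36 bases after the 2 annotated starts and lies in an exon of 4 of the 6 transcripts that span it. It is shown with its flanks, the element in capitals.
*Hsph1*, chr5:149636279-149636308, minus strand: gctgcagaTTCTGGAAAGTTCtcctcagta

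The *Hsph1* level was 60.7, 46.4, 51.9, 56.2 and 66.1 CPM in WT and 99.96, 85.5, 147.9 and 48.5 CPM in the libraries labelled FcgRIIB-/-. Of these 4 mice 3 lay above all WT mice, while replicate 4 was near the lowest WT mouse. The log2 difference of 0.76 (SE 0.25, adjusted p = 0.0361 from edgeR) was the largest among the members, and without replicate 3 of that group it was 0.47 with an adjusted p of 0.11. None of its 75-base words occur in transcripts of other genes.

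*Dnajb1* (gene 81489, chromosome 8 from 83608175 to 83612653, plus strand, 3 exons) encodes HSP40, the J-domain protein that hands clients to HSP70 and is itself a classical heat-inducible gene. It had 66.1, 53.0, 57.8, 54.1 and 67.2 CPM in WT and 50.7, 45.5, 52.0 and 37.3 CPM in the libraries labelled FcgRIIB-/-. All 4 mice of the second group lay below the lowest WT mouse, although replicate 3 came close to it. The log2 difference was -0.36 (SE 0.11, adjusted p = 0.0298 from edgeR) and between -0.42 and -0.27 with each mouse left out, where adjusted p reached 0.084 without WT replicate 1. Neither of its 2 promoter windows held a 2-unit or a 3-unit element, and none of its 75-base words are shared with other genes.

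Because *Hspa8* and *Dnajb1* work as partners and moved in opposite directions, their counts were also set against each other in each library. This ratio was chosen after the values were seen and is given as a description. The *Hspa8* count was 6.51, 6.99, 7.02, 7.91 and 7.11 times the *Dnajb1* count in WT replicates 1 to 5 and 13.3, 13.2, 15.4 and 13.9 times in replicates 1 to 4 labelled FcgRIIB-/-. Its mean was 7.11 ± 0.506 (SD, n = 5) and 13.9 ± 0.994 (SD, n = 4), and the ranges of the groups lay far apart, replicate 4 of the second group included.

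The cytosolic HSP90 genes code for a constitutive and an inducible form. *Hsp90ab1* (gene 15516, chromosome 17 from 45567778 to 45573261, minus strand, 11 exons), the constitutive form, had 983.6, 899.2, 942.3, 944.1 and 1050 CPM in WT and 1211, 1285, 1430 and 976.9 CPM in the libraries labelled FcgRIIB-/-. Replicates 1 to 3 of that group lay above all WT mice and replicate 4 among them. The log2 difference was 0.35 (SE 0.11, adjusted p = 0.0373 from edgeR), with adjusted p as high as 0.0937 when replicate 3 of the group was left out.

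*Hsp90aa1* (gene 15519, chromosome 12 from 110691036 to 110696395, minus strand, 11 exons), the stress-inducible form, had 112.9, 118.2, 115.7, 133.1 and 129.6 CPM in WT and 141.7, 179.8, 278.9 and 116.3 CPM in the libraries labelled FcgRIIB-/-. Replicate 3 had more than any other mouse, and replicate 4 lay within WT. The difference of 0.56 (SE 0.21) had an adjusted p of 0.0603 in edgeR and 0.0211 in DESeq2. Without replicate 3 it was 0.26, and without replicate 4 it was 0.72 with an adjusted p of 0.0184 in edgeR. The *Hsp90aa1* count was 0.127 ± 0.0099 (SD, n = 5) of the *Hsp90ab1* count in WT and 0.143 ± 0.0364 (SD, n = 4) in the other group (two-sided exact permutation test, p = 0.5, adjusted p = 0.5 over the 3 ratios). In replicate 3 the ratio was 0.195, and without that library the difference changed sign, from 0.14 to -0.02 on the log2 scale. Of the 75-base words of *Hsp90aa1*, 53.1% occur in other annotated transcripts, such as Gm12346, whereas the share for *Hsp90ab1* was 0.736%.

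*Hspb1* (gene 15507, chromosome 5 from 135887919 to 135889563, plus strand, 3 exons) encodes HSP25, a small heat shock protein that holds unfolded proteins and is abundant in muscle. The 250 bases before its start, shown as the one promoter of a small heat shock protein among the members, held a pair of 2-unit elements, in capitals, beginning 117 and 97 bases before the start; 15.1% of all promoter windows hold at least 1.
*Hspb1*, chr5:135887669-135887918, plus strand: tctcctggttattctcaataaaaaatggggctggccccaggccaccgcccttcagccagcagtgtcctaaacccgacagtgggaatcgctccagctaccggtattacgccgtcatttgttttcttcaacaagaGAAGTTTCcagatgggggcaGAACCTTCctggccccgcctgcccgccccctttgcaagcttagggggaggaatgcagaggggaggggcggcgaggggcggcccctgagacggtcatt

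The *Hspb1* level was 96.1, 54.8, 87.6, 70.5 and 123.6 CPM in WT and 130.6, 136.2, 176.5 and 88.9 CPM in the libraries labelled FcgRIIB-/-. WT mice varied more in this gene than in any other member relative to their mean (86.5 ± 26.1 CPM, SD, n = 5), and replicate 4 of the second group lay inside their range. The difference of 0.62 (SE 0.23) missed the threshold in edgeR (adjusted p = 0.0626) and passed in DESeq2 (adjusted p = 0.022). In edgeR it passed in 2 of the 9 fits with a mouse left out, at 0.81 without WT replicate 5 (adjusted p = 0.0193) and 0.77 without replicate 4 labelled FcgRIIB-/- (0.0316), and was lowest without replicate 3 of that group, at 0.46 (0.178). Words of 75 bases shared with other transcripts made up 57.7%, all of them also in the pseudogene Hsp25-ps1, which was not analysed here.

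The last members act in mitochondria. *Hspd1* (gene 15510, chromosome 1 from 55077833 to 55088243, minus strand, 12 exons) encodes HSP60, the barrel of the mitochondrial chaperonin, and *Hspe1* (gene 15528, chromosome 1 from 55088148 to 55091317, plus strand, 4 exons), which is not a member, encodes HSP10, its lid. The genes lie head to head and overlap, so that 1 pair of overlapping 3-unit elements falls in the windows of both, 144 and 139 bases before 1 of the *Hspd1* starts and 89 and 84 bases before that of *Hspe1*. This stretch of 30 bases is shown because it is common to both subunits; the elements, in capitals, lie inside *Hspd1*, in an exon of 1 of the 2 transcripts that span them.
*Hspd1*, chr1:55088053-55088082, minus strand: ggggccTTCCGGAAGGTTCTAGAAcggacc

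*Hspd1* had 103.1, 84.6, 99.7, 108.1 and 106.3 CPM in WT and 113.8, 116.8, 160.6 and 86.3 CPM in the libraries labelled FcgRIIB-/-. The difference of 0.25 (SE 0.15, adjusted p = 0.219 from edgeR) did not pass, and it ran from 0.08, without replicate 3 labelled FcgRIIB-/-, to 0.38, without replicate 4, where it passed (adjusted p = 0.0475). *Hspe1* had 45.4, 39.4, 48.3, 51.2 and 45.7 CPM in WT and 61.6, 74.9, 111.9 and 53.5 CPM in the libraries labelled FcgRIIB-/-, with no overlap between the groups. It rose by 0.72 on the log2 scale (SE 0.18, adjusted p = 0.0135 from edgeR) and was called in all 9 fits with a mouse left out, with values from 0.46, without replicate 3 labelled FcgRIIB-/-, to 0.85, without replicate 4.

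The subunit counts therefore stood in a different ratio under the 2 labels. There were 2.18 ± 0.11 *Hspd1* counts per *Hspe1* count in WT mice (SD, n = 5; 2.07 to 2.33) and 1.61 ± 0.173 under the other label (SD, n = 4; 1.43 to 1.85), a log2 difference of -0.44. Every mouse of the second group was below every WT mouse (two-sided exact permutation test over 126 splits, p = 0.00794, the smallest these splits can give; adjusted p = 0.0238 over the 3 ratios). The library was made to keep strand, but whether the counting used it is not stated, so reads from the short stretch where the genes overlap cannot be assigned with certainty, and 33.7% of the *Hspd1* words and 29.1% of the *Hspe1* words are shared with other transcripts.

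**Figure D2:**
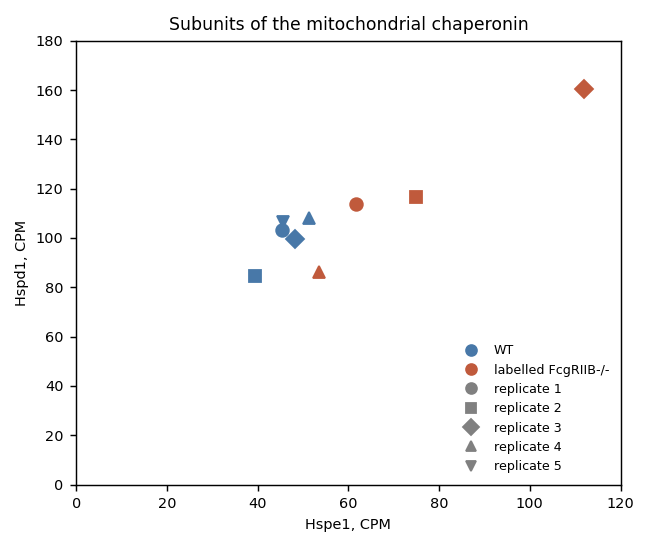
*Hspd1* level against *Hspe1* level, both in CPM, in each of the 9 mice (blue WT, orange labelled FcgRIIB-/-, symbols the replicate numbers; both axes start at 0). Mice labelled FcgRIIB-/- lie to the right of all WT mice, from 53.5 to 111.9 CPM of *Hspe1*, while 1 of them, with 86.3 CPM of *Hspd1*, is within the WT range of the vertical axis.

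*Trap1* (gene 68015, chromosome 16 from 4039971 to 4077840, minus strand, 18 exons) encodes the HSP90 of the mitochondrial matrix, which is known for a restraining effect on respiration. It had 67.1, 57.7, 63.3, 68.2 and 67.9 CPM in WT and 79.3, 72.0, 76.4 and 71.7 CPM in the libraries labelled FcgRIIB-/-. The groups did not overlap, but the step between the highest WT mouse and the lowest of the others was small. The log2 difference of 0.21 (SE 0.07, adjusted p = 0.033 from edgeR) was the smallest of those called, and its SE was the smallest of all members. Scaling matters at this size: with libraries scaled by their totals alone, which moved the median of all genes by -0.08 on the log2 scale, the difference was 0.13 with an adjusted p of 0.192. The study picked *Trap1* from these libraries for follow-up, so its direction is not independent evidence. The outcome of that follow-up is not reported here. Its promoter window held neither element, none of its 75-base words are shared, and *Dnase1* overlaps it on the opposite strand.

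**Figure D3:**
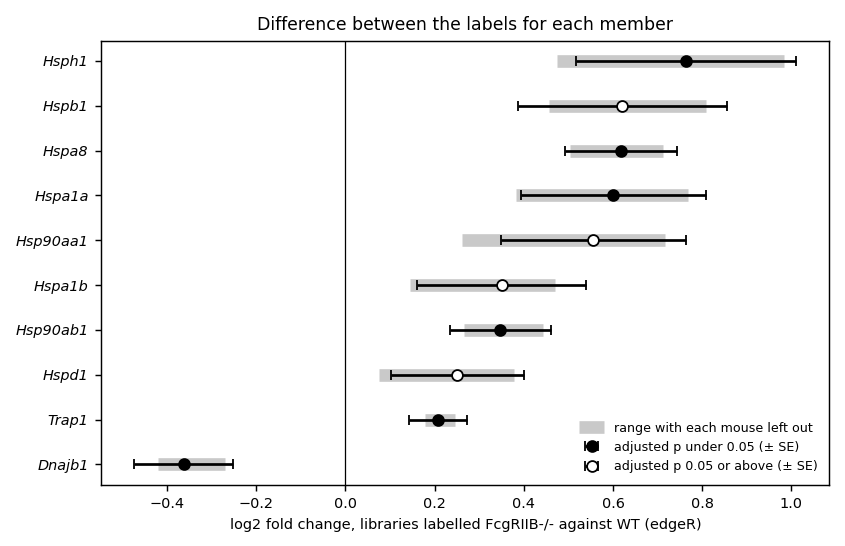
log2 fold change of each member in the libraries labelled FcgRIIB-/- against WT from edgeR, with ± 1 SE; filled points had an adjusted p under 0.05, open points did not, and grey bars span the values with each mouse left out. *Hspa8* is clear of 0 with a bar from 0.50 to 0.71, *Dnajb1* is the one point below 0, and no grey bar crosses 0.

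Levels between members were compared per kilobase of each gene's longest principal transcript. In WT the order was *Hsp90ab1* with 382.4 ± 22.4, *Hspa8* with 176.4 ± 16.4, *Hspb1* with 95.8 ± 28.9, *Hspd1* with 41.4 ± 3.86, *Hsp90aa1* with 37.2 ± 2.72, *Trap1* with 27.9 ± 1.92, *Dnajb1* with 19.9 ± 2.23, *Hsph1* with 14.8 ± 2.01, *Hspa1b* with 8.05 ± 1.56 and *Hspa1a* with 3.75 ± 0.44 CPM per kb (SD, n = 5). Neighbours in this order did not overlap between mice except *Hspd1* and *Hsp90aa1*. The constitutive forms thus stood far above their inducible partners in the level of their RNA. In the libraries labelled FcgRIIB-/- *Hsp90aa1*, with 54.6 ± 21.8, stood above *Hspd1*, with 49.3 ± 12.7, and *Hsph1*, with 25.1 ± 10.8, above *Dnajb1*, with 15.5 ± 2.23 CPM per kb (SD, n = 4), but in both pairs the mice overlapped. Every pair of neighbours below *Hspb1* overlapped in that group except *Hspd1* and *Trap1*. Levels of genes that share words with others may be too low or too high, depending on how shared reads were counted.

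Most members moved together from mouse to mouse within each label. Replicate 3 labelled FcgRIIB-/- was the highest of its 4 mice in 9 members, all but *Trap1*, and replicate 4 the lowest in all 10, while these libraries were highest and lowest of the 4 in 28.3% and 29.6% of all tested genes. In WT, replicate 2 was the lowest of 5 in 9 members (25.7% of all tested genes) and replicate 5 the highest in 7 (27.0%). The direction of *Dnajb1* between the labels was opposite to that of the other members, yet its level correlated with theirs once the label means were removed. The Pearson correlation of its log2 CPM with the other 9 members, pooled over the 9 mice, had a median of 0.85 and ran from 0.513 to 0.898. The lowest was with *Hsp90aa1*, and no correlation was taken within 1 label. WT replicate 1 was the lowest WT mouse for *Hsp90aa1*, with 112.9 CPM. It had 66.1 CPM of *Dnajb1*, near the highest WT value of 67.2. *Trap1* was the least alike, with a median of 0.572 and a range from 0.211 to 0.697. The closest pair was *Hspa8* and *Hsph1* at 0.963. These correlations are descriptions: all genes of a mouse come from 1 library, and scaling is common to them.

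**Figure D4:**
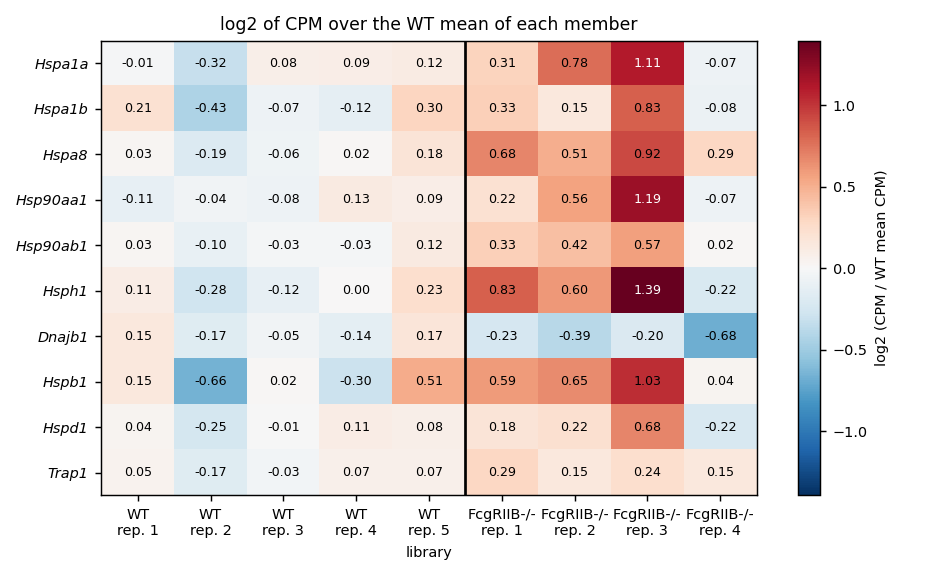
log2 of each member's CPM over its WT mean, for each of the 9 libraries (columns; WT left of the line, labelled FcgRIIB-/- right of it); the number in each cell is the value plotted. Replicate 3 labelled FcgRIIB-/- reaches 1.39 for *Hsph1* and is -0.20 for *Dnajb1*, and replicate 4 lies between -0.68 and 0.29.

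*Hspa1b*, *Hsp90aa1* and *Trap1* were matched to the genes with the most similar pattern over the 9 mice after the label means were removed, among 12960 genes. For *Hspa1b* these were *Rhou* (r = 0.969), *Dnajb2* (0.965), itself a J-domain gene, and *Cdo1* (0.960). For *Hsp90aa1* they were *Eed* (r = 0.986), *Matr3* (0.984) and *Wdr75* (0.983). For *Trap1* they were *C2cd2* (r = 0.992), *Cacna2d1* (0.981) and *Myot* (0.978), of which *Cacna2d1* codes for a calcium channel subunit and *Myot* for a protein of the muscle Z-disc. These sets held no gene in common. Each is the top of 12960 comparisons over 9 mice, where a high r is easily reached. No test was made, and no shared role is read from these genes.

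The wider chaperone network was described with 8 lists, from which the members were removed. The lists overlap. *Hspa5* and *Hyou1* are in both the HSP70 and the endoplasmic reticulum list. *Dnajb9*, *Dnajb11* and *Dnajc10* are in both the J-domain and the endoplasmic reticulum list. The totals given next count each gene once. Of 129 tested genes 48 were higher (37.2%, against 14.0% of all tested genes) and 4 were lower, with a median log2 difference of 0.19 against 0.01 over all tested genes. The direction was uneven among the families.

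Partners of HSP70 and HSP90 were often higher. Of 25 co-chaperones 12 were higher and 0 lower (median 0.29; DESeq2 called 14 higher and 0 lower, and edgeR had 2 lower at an unadjusted p under 0.05). *Fkbp5*, an HSP90-bound immunophilin of steroid receptor complexes and a glucocorticoid target, rose by 0.76 (SE 0.26, adjusted p = 0.0447), and *Unc45b*, the myosin chaperone of muscle, by 0.69 (SE 0.19, adjusted p = 0.0212). The call of *Fkbp5* held in 2 of the 9 fits with a mouse left out, where adjusted p reached 0.134, and was lost with total counts (0.0604), and that of *Unc45b* was lost without replicate 1 labelled FcgRIIB-/- (0.56, adjusted p = 0.0651). *Unc45b* and the muscle markers moved alike among WT mice: WT replicate 2 was lowest in both, with 32.9 CPM of *Unc45b* and 11630 CPM summed over the markers. Leaving out replicate 1 labelled FcgRIIB-/- lowered the co-chaperone count to 7, and total counts to 6. Of 11 other HSP70 family genes, 3 were higher and 0 lower (DESeq2 4 and 0; 0 were lower at an unadjusted p under 0.05), and without replicate 3 of that group 1 was higher.

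J-domain proteins are the largest of these families. Of 39 tested genes beside *Dnajb1*, 7 were higher (17.9%, near the 14.0% of all tested genes) and 4 lower (10.3%, against 19.3%), with a median of 0.10. Scaling by total counts gave 3 higher and 5 lower, and a replicate block 4 and 4. RLE scaling and DESeq2 each gave 10 higher and 4 lower, where DESeq2 called 17.3% and 19.6% of all tested genes. *Dnajc15*, of the mitochondrial inner membrane, rose by 0.62 (SE 0.11, adjusted p = 0.0025), and *Dnajc21*, which serves ribosome assembly, by 0.51 (SE 0.11, adjusted p = 0.00563). *Dnajc16* fell by 0.42 (SE 0.09, adjusted p = 0.00471), as did *Dnajc13*, an endosomal protein, by 0.39 (SE 0.07, adjusted p = 0.00204). These 4 genes did not overlap between the labels and were called in all 9 fits with a mouse left out.

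Small heat shock proteins other than *Hspb1* had the largest shift of the lists, with 6 of 7 tested genes higher, 0 lower (0 also in DESeq2 and at an unadjusted p under 0.05) and a median of 0.87. *Hspb6* rose by 1.12 (SE 0.25, adjusted p = 0.00752), from 173.0 ± 53.3 CPM (SD, n = 5) to 376.1 ± 104.4 CPM (SD, n = 4), and *Hspb3* by 0.99 (SE 0.21, adjusted p = 0.00549). Both are chiefly known from muscle. The summed level of the list was 387.5 to 788.9 CPM in WT, lowest in replicate 2, and 1022 to 1298 CPM in the libraries labelled FcgRIIB-/-, highest in replicate 1, which were also the lowest and the highest library in the summed muscle markers, at 11630 and 48630 CPM. The part of the muscle markers in this result was not tested.

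In the endoplasmic reticulum 13 of 22 chaperones and stress genes were higher and 1 was lower (median 0.41). *Hspa5*, the HSP70 of this compartment (BiP), rose by 0.88 (SE 0.26, adjusted p = 0.0247), and *Sdf2l1*, its partner, by 1.01 (SE 0.28, adjusted p = 0.0203). The spread was wide: *Hspa5* had 483.3 to 586.8 CPM in WT and 895.5, 922.5, 1664 and 506.1 CPM in replicates 1 to 4 labelled FcgRIIB-/-. Replicate 3 was again the highest and replicate 4 the lowest, and without replicate 3 the list had 5 higher genes, *Hspa5* was at 0.52 with an adjusted p of 0.0556 and *Sdf2l1* at 0.65 with 0.0561. The list had 8 higher genes without replicate 2 of that group and 6 with total counts or a replicate block. *Hyou1*, the HSP110 of this compartment, rose by 0.55 (SE 0.16, adjusted p = 0.025). Its call was lost without replicate 3 labelled FcgRIIB-/- (adjusted p = 0.0688), without replicate 2 (0.0621) and with total counts (0.0549). *Hsp90b1*, the HSP90 of this compartment, differed by 0.53 (SE 0.25, adjusted p = 0.119), by 0.28 without replicate 3 (adjusted p = 0.365) and by 0.75 without replicate 4 (adjusted p = 0.0116, called). *Dnajc10*, a disulfide reductase with a J-domain, fell by 0.32 (SE 0.06, adjusted p = 0.00216) and was called in all 9 fits with a mouse left out.

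Among 20 other mitochondrial proteostasis genes 7 were higher and 0 lower (0 also in DESeq2 and at an unadjusted p under 0.05), *Hspe1* and the protease subunit *Clpp* with a rise of 0.47 (SE 0.10, adjusted p = 0.00551) among them. *Hspa9*, the mitochondrial HSP70, differed by 0.13 (SE 0.10, adjusted p = 0.315). Of the 8 subunits of the cytosolic chaperonin CCT, which folds actin and tubulin, only *Cct7* was higher (0.20, SE 0.07, adjusted p = 0.0388), 0 were lower (0 also in DESeq2 and at an unadjusted p under 0.05), and the count ran from 0 to 2 with a mouse left out.

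The factors that control heat shock genes were measured too. *Hsf1*, the main heat shock factor, had 36.2, 32.7, 34.7, 35.0 and 37.3 CPM in WT and 45.3, 44.6, 41.4 and 49.3 CPM in the libraries labelled FcgRIIB-/-. All 4 lay above all WT mice, and the log2 difference was 0.36 (SE 0.07, adjusted p = 0.00333 from edgeR), with adjusted p of at most 0.00998 with any mouse left out. Unlike the members, *Hsf1* was highest in replicate 4 and lowest in replicate 3 of that group. *Hsf4* rose by 0.48 (SE 0.14, adjusted p = 0.0197; 0.0518 without replicate 4), and of the 5 genes of this list 3 were higher and 0 lower (0 also in DESeq2 and at an unadjusted p under 0.05). The factor is controlled mainly through its protein, which RNA does not measure.

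Immediate early genes, which rise within minutes of tissue handling, were counted for comparison. None of 24 was called in either direction by edgeR (median 0.07), 4 were higher and 2 lower at an unadjusted p under 0.05, and DESeq2 called 3 higher and 0 lower. The edgeR count depended on scaling and on single mice: 2 were higher with RLE scaling, 3 higher without replicate 4 labelled FcgRIIB-/- and 2 lower without replicate 3. Their summed level was 1319 to 1683 CPM in WT and 1171 to 2019 CPM in the libraries labelled FcgRIIB-/-.

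**Figure D5:**
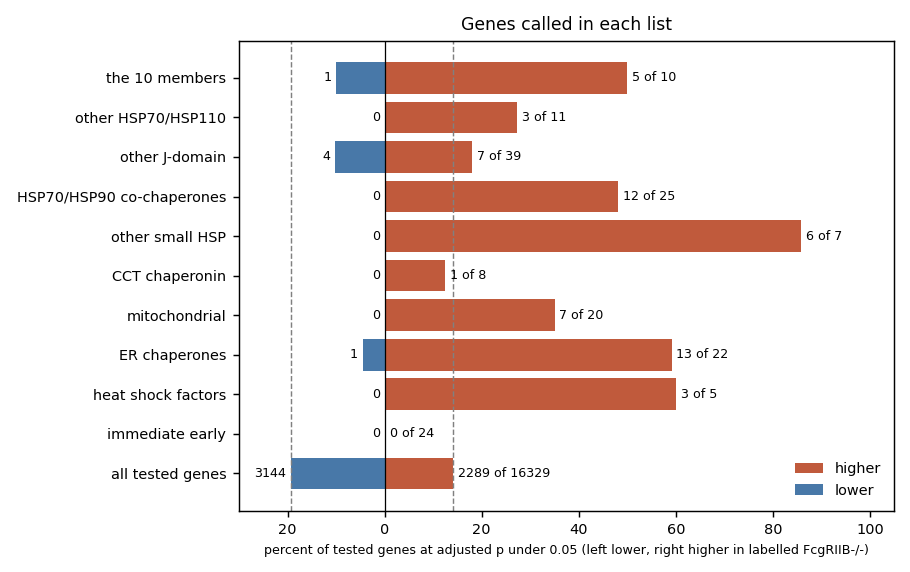
Percent of tested genes in each list that were higher (orange, to the right) or lower (blue, to the left) in the libraries labelled FcgRIIB-/- at an adjusted p under 0.05 in edgeR, with counts beside the bars; dashed lines mark the 14.0% and 19.3% of all tested genes. Small heat shock proteins (6 of 7) and endoplasmic reticulum chaperones (13 of 22) have long orange bars, and immediate early genes have none.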

How the data were processed

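RNA of whole mandibles was sequenced as stranded poly(A) libraries with 75-base single-end reads. The authors trimmed reads with Trim Galore, aligned them to mm10 with HISAT 02.1.0 and used featureCounts for counts per gene; the deposited values are these raw counts without normalization. Strand setting and treatment of multi-mapping reads are not given in the sources used here. Samples were grouped by their labels, each a separate mouse. The table held 1 further column of per-sample values that matched no sample and was not used.

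Counts were analysed with R 4.3.3 and edgeR 4.0.16 (filterByExpr with a minimum count of 10, TMM, quasi-likelihood test without covariates, Benjamini-Hochberg threshold 0.05). An SE is the size of the log2 fold change divided by the root of F, and log2 CPM used a prior count of 2. Ratios and *Fcgr2b* were tested by exact permutation. Alternatives were DESeq2 1.42.0, RLE scaling, total counts, no filter, at least 10 counts in every library, a replicate block and leaving out each mouse. The script was tested on simulated counts. Members, lists and tests were chosen with earlier results of these data known, and the 2-unit element after the sequences were seen. Named genes are the members, *Fcgr2b*, 5 counterparts (*Hspe1*, *Hspa9*, *Hspa5*, *Hsp90b1*, *Hsf1*) and, per list, up to 2 called genes in each direction with the largest change and an average log2 CPM of at least 2. Coordinates and promoter windows, which 7 of the 10 members had, are from RefSeq (GRCm38.p6, the build of mm10), transcripts from GENCODE vM21. Within groups 0 pairs of libraries were near-identical.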

Additional observations from a re-analysis of the deposited data

Results flagged for a closer look

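No member was flagged. In 8 of 106 groups of values 1 mouse stood apart from the others of its label by Dixon's criterion, and chance flags about 1 in 20 such groups. For *Fcgr2b*, WT replicate 2 had 38.3 CPM against 17.0 to 23.1 in the other WT mice, and replicate 4 labelled FcgRIIB-/- had 32.1 CPM against 26.0 to 26.6. WT replicate 2, the lowest WT mouse in 9 members, also stood apart with 199.6 CPM of *Hspa9* (others 227.6 to 237.9), 16.2 CPM of *Dnajc15* (at most 20.96 in the others) and a summed 1091 CPM of the mitochondrial proteostasis list (others 1171 to 1197). *Fkbp5* was at 50.6 CPM in WT replicate 5 against 23.8 to 28.6 in the other WT mice, and the same library had a summed 3741 CPM of neutrophil and myeloid markers against 1225 to 1931. The list of heat shock factors summed to 186.8 CPM in replicate 2 labelled FcgRIIB-/- against 204.7 to 206.5 in the other 3.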

How the results depend on the processing

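*Hspa8* kept its direction and its call under every alternative run. Of the other members' calls, most lay close to the threshold. The number of members higher was 7 with DESeq2, 2 without a filter on low counts, 2 with a replicate block and 1 with scaling by total count alone. It ran from 1 to 8 with each mouse left out (1 without replicate 3 labelled FcgRIIB-/-, 8 without replicate 4). The number lower ran from 0 to 1. Of all tested genes 2831 were higher with DESeq2, 2001 without the filter and 1594 with the block. With each mouse left out 1781 to 2292 of them were higher (1883 without replicate 3 labelled FcgRIIB-/-, 1781 without replicate 4). Without the filter, which adds genes to the adjustment, *Hspa1a* (0.60, adjusted p = 0.0533), *Hsp90ab1* (0.34, 0.0519) and *Trap1* (0.20, 0.0562) lost the call. With total counts, *Hspa1a* (0.54, 0.0822), *Hsp90ab1* (0.28, 0.114), *Hsph1* (0.70, 0.0563) and *Trap1* (0.13, 0.192) did, all tested genes had 1309 higher, and the chaperone lists 30 higher and 7 lower. Replicate numbers did not pair the mice (correlations of deviations 0.0969, 0.0276, -0.114 and -0.0739), and the replicate block gave 0.58 for *Hspa1a*, 0.37 for *Hsp90ab1*, 0.73 for *Hsph1* and 0.23 for *Trap1*, none called, and 0.78 for *Hspb1*, called; the block changed no other member's call. DESeq2 called *Hsp90aa1* (0.57) and *Hspb1* (0.64).

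With each mouse left out, log2 fold changes ran from 0.38 to 0.77 for *Hspa1a*, 0.15 to 0.47 for *Hspa1b*, 0.26 to 0.72 for *Hsp90aa1*, 0.27 to 0.44 for *Hsp90ab1*, 0.47 to 0.98 for *Hsph1*, -0.42 to -0.27 for *Dnajb1*, 0.46 to 0.81 for *Hspb1*, 0.075 to 0.379 for *Hspd1*, 0.18 to 0.25 for *Trap1*, 0.23 to 0.58 for the summed *Hspa1a* and *Hspa1b* and 0.13 to 0.46 for *Fcgr2b*, which was called higher without WT replicate 2 (adjusted p = 0.0131). The log2 ratio of *Hspd1* to *Hspe1* ran from -0.51 to -0.39, where 8 mice allow no adjusted p under 0.0536. The ratio of *Hsp90aa1* to *Hsp90ab1* ran from -0.017 to 0.229 and turned without replicate 3 labelled FcgRIIB-/-. The cause was not tested. The lowest member count was 209, and with 5 and 4 mice the smallest permutation p is 0.00794.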
